A study of Mus musculus with 6 samples.

Results

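The subject is a group of 5 genes that act at the step where mitotic germ cells enter meiosis: Stra8, Meiosin, Meioc, Ythdc2 and Zfp541. They were taken by symbol or Ensembl ID from a deposited table of 22274 genes, all 5 were found, and all 5 are among the 14424 genes with enough counts to test. Meiosin stands in that table under the older symbol BHMG1 (ENSMUSG00000085601) and Zfp541 under Znf541 (ENSMUSG00000078796), while Stra8 (ENSMUSG00000029848), Meioc (ENSMUSG00000051455) and Ythdc2 (ENSMUSG00000034653) stand under their own names.

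Gene counts were read in 3 control libraries and in 3 libraries with Dcaf2 knocked out in germ cells, each made with a messenger RNA kit from whole mouse testes labelled day 9. Dcaf2 encodes the substrate receptor of a CRL4 ubiquitin ligase, and the study asked whether it is needed for spermatogenesis. The knockouts came from matings of Dcaf2 fl/fl animals to Stra8-Cre animals, whose recombinase is driven by promoter sequence of Stra8, the first gene described here. The genotype of the controls, including whether they carry Cre, and the event from which days were counted were not stated in the labels. Nor is it said that the numbered samples of a group come from separate mice, and the p-values then rest on the spread between samples that may be technical. Libraries held 15407007 to 18372964 counts. The transcript of Dcaf2, under its current symbol Dtl, checks the labels only loosely, since whole-gene counts include transcripts without the deleted part and somatic cells. It had 42.6, 50.3 and 77.4 CPM (defined further on) in control libraries 1 to 3, and knockout libraries 1 to 3 had 41.7, 43.8 and 51.5 CPM. The groups overlapped (-0.31 in log2, adjusted p = 0.281 by edgeR), and Dtl passed the test without control library 1 (-0.51, adjusted p = 0.0321 by edgeR).

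Retinoic acid switches on STRA8 in germ cells, and STRA8 joins MEIOSIN in a transcription factor complex that turns on genes of the meiotic prophase. MEIOC and the RNA helicase YTHDC2 work together, removing transcripts of the mitotic cell cycle so that a cell does not return to division. ZFP541 is a zinc-finger protein made once the programme has begun, and acts with KCTD19 and histone deacetylases during the meiotic prophase. In the mouse testis the first spermatocytes appear in the second postnatal week, next to spermatogonia and many somatic cells.

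The sequences just before the start sites of 3 of the genes are shown because Stra8, Meiosin, Meioc and Zfp541 were all lower in the knockouts, and these stretches hold the letters searched for. They come from RefSeq windows on GRCm38.p6, which held 4 of the 5 genes and no entry for Ythdc2. The build behind the deposited counts is not stated. Capitals mark matches, found on either strand, to AGGTCA (the half-site bound by retinoic acid receptors), CACGTG (an E-box, bound by basic helix-loop-helix proteins such as MAX and MGA), GCGGGAA (an E2F6-type site) and CNCCTCAG (reported at promoters bound by STRA8). The Stra8 window lies inside an exon of another annotated transcript of the gene, so only a stretch of 30 bases around each match is given, at chr6:34920742-34920771 and chr6:34920898-34920927 (+ strand). The Meiosin sequence is chr7:19118369-19118594 (- strand), up to its annotated exon, and the Meioc sequence is chr11:102665335-102665584 (+ strand), which holds no annotated exon and lies within the span of another Meioc transcript.
Stra8, first match: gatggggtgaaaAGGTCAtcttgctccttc
Stra8, second match: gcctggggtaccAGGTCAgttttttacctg
Meiosin: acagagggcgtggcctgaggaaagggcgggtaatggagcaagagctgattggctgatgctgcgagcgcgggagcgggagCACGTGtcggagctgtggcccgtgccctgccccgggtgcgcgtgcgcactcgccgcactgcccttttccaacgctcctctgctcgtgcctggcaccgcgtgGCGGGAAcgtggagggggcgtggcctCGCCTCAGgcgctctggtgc
Meioc: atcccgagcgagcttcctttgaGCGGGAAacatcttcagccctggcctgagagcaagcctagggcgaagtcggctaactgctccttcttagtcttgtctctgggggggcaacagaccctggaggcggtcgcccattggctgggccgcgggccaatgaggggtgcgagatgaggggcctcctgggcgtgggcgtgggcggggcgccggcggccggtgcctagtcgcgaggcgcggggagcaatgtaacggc

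In Stra8 the AGGTCA matches began 194 and 38 bases before the start site. Meiosin held CACGTG at 171 bases, GCGGGAA at 70 bases and CGCCTCAG at 44 bases before its start, none overlapping another. Meioc held GCGGGAA at 228 bases, and the window of Zfp541 held none of the 4 motifs. Among all 32841 windows of 250 bases, 14% held AGGTCA, 6.42% CNCCTCAG, 6.02% CACGTG and 3.82% GCGGGAA. Among the 39 windows of the meiotic prophase genes listed further on, the shares were 15.4%, 17.9%, 23.1% and 23.1%, at a median GC content of 60% against 52.4% for all windows. A match describes the letters in these windows and is not a measured binding site.

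Stra8, Meiosin, Meioc and Zfp541 fell in the knockouts, by 4.16-fold to 12.5-fold when libraries were scaled over all genes, and Ythdc2 did not pass the test. Levels are given as CPM, a gene's count as a share of its library, with library sizes set by edgeR's trimmed mean method (TMM), and changes as log2 fold changes of knockout against control, with edgeR's quasi-likelihood test and adjustment over all 14424 genes at a threshold of 0.05. The 4 genes that fell stand beside a background in which 13.9% of all tested genes were called lower and 11.1% higher (25.0% either way). In these bulk samples, fewer cells of a type and less RNA per cell cannot be told apart.

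**Figure D1:**
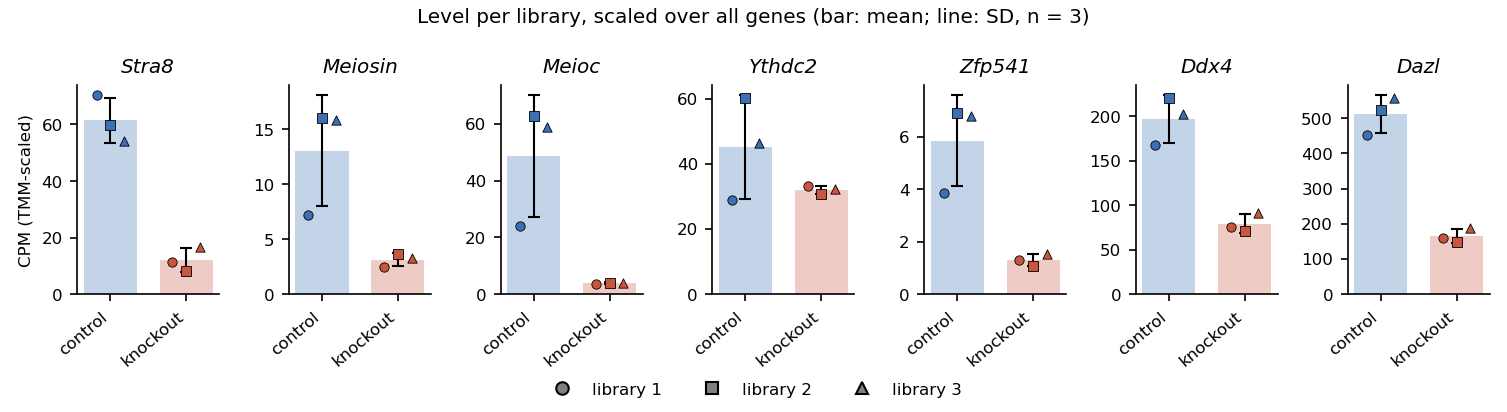
Level of each of the 5 genes and of the germ-cell genes Ddx4 and Dazl in every library, in CPM scaled over all genes, on axes that start at 0. Points are single libraries, bars are means and lines are SD (n = 3). All control points lie above all knockout points except for Ythdc2, where control library 1, at 28.8 CPM, lies below every knockout library.

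In the control libraries Stra8 had 70.3, 59.7 and 54.3 CPM, against 11.3, 8.16 and 16.7 CPM for the knockout libraries. The lowest control library was more than 3 times the highest knockout library, so the groups did not overlap. The mean went from 61.4 ± 8.12 to 12.0 ± 4.30 CPM (SD, n = 3). This was 5.12-fold, or -2.35 in log2 (SE 0.226, with a 95% interval from -2.87 to -1.84 and an edgeR adjusted p of 0.000453).

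Meiosin, whose product is the partner of STRA8, had 7.23, 16.1 and 15.9 CPM in control libraries 1 to 3 and 2.47, 3.64 and 3.25 CPM in knockout libraries 1 to 3. Control library 1 was the lowest control and still above every knockout library. The mean went from 13.1 ± 5.04 to 3.12 ± 0.596 CPM, which is 4.16-fold or -2.06 in log2 (SE 0.321, adjusted p = 0.00338 by edgeR).

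Meioc, which encodes the cofactor of YTHDC2, had the largest fall of the 5. Control libraries 1 to 3 held 24.1, 62.8 and 59.1 CPM of it, from 456 to 1127 counts. Knockout libraries 1 to 3 held 3.64, 4.05 and 3.99 CPM, from 56 to 69 counts. The knockout libraries lay close together, and the wide control SD came from control library 1. The mean went from 48.7 ± 21.4 to 3.89 ± 0.220 CPM, which is 12.5-fold or -3.64 in log2 (SE 0.355, with a 95% interval from -4.44 to -2.84, adjusted p = 0.000493 by edgeR). Only 16 of the 14424 tested genes had a more negative log2 fold change, which puts Meioc at rank 17.

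Zfp541 was the gene of the 5 with the fewest counts, 73, 124 and 113 for control libraries 1 to 3 and 20, 18 and 23 for knockout libraries 1 to 3. In CPM this was 3.85, 6.91 and 6.79 against 1.301, 1.06 and 1.53, with control library 1 again the lowest control and no overlap between the groups. The fall was 4.51-fold, or -2.17 in log2 (SE 0.304, adjusted p = 0.0023 by edgeR).

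Ythdc2, which encodes the helicase, had 28.8, 60.3 and 46.4 CPM in control libraries 1 to 3, against 33.2, 30.6 and 32.1 CPM in knockout libraries 1 to 3. The groups overlapped, since control library 1 was the lowest of all 6 libraries while the other controls were above every knockout library. Means of 45.2 ± 15.8 and 32.0 ± 1.33 CPM gave -0.50 in log2 (SE 0.223, with a 95% interval from -1.001 to 0.0079, adjusted p = 0.133 by edgeR). Without control library 1 the log2 fold change of -0.76 did pass (adjusted p = 0.000757 by edgeR).

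Control library 1 differed from the other controls by transcript length, and the 5 genes differ in length. Against the mean of the other controls, the 25% of genes with the shortest transcripts had a median of 0.31 (log2) in control library 1, and the 25% with the longest had -0.32. The length is that of a gene's longest transcript. Control library 2 showed the opposite, with -0.23 and 0.27. Stra8, with a longest transcript of 1803 bases (percentile 15.5 of the tested genes), was highest in control library 1. Meiosin (3902 bases, percentile 59), Meioc (4573, percentile 70.5), Zfp541 (4879, percentile 74.9) and Ythdc2 (7215, percentile 91.4) were lowest there. With a trend on transcript length removed from each library, Ythdc2 was lower by a log2 fold change of -0.67 (edgeR adjusted p = 0.00522), and the calls for Stra8, Meiosin, Meioc and Zfp541 held. The SE of Ythdc2 went from 0.223 to 0.138. It went from 0.321 to 0.306 for Meiosin, 0.355 to 0.323 for Meioc, 0.304 to 0.280 for Zfp541 and 0.226 to 0.201 for Stra8. Control library 1 also differed in summed marker levels, with 915 CPM of Leydig cell markers against 467 and 439 CPM in the other controls, 6671 CPM of Sertoli cell markers against 5007 and 4774 CPM, and 1439 CPM of pan-germ-cell genes against 1912 and 1870 CPM. The meiotic prophase genes listed further on summed to 1131 CPM in control library 1 against 1703 and 1612 CPM in the other controls. Per 100 counts of the geometric mean of Ddx4 and Dazl they summed to 412 against 501 and 481. The part of RNA quality and of the mix of cells in these differences was not tested.

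Levels per transcript length can be compared between genes through the deposited FPKM values. In the controls Stra8 was the most abundant at 48.0 ± 6.28 FPKM, above Meioc at 11.2 ± 5.01, Ythdc2 at 7.78 ± 1.63, Meiosin at 6.02 ± 2.26 and Zfp541 at 1.37 ± 0.415 FPKM. Stra8 lay above all the others and Zfp541 below. The library ranges of Meioc, Ythdc2 and Meiosin overlapped, but within each control library Meiosin was the lowest of these. In control library 3 it was close to Ythdc2, at 7.58 against 8.19 FPKM. The order of Meioc and Ythdc2 was not settled. Meioc was lower in control library 1 (5.43 against 5.98 FPKM) and higher in control libraries 2 (14.71 against 9.16) and 3 (13.35 against 8.19). In the knockouts the order by FPKM was Stra8 at 8.50 ± 2.96, Ythdc2 at 5.25 ± 0.0666, Meiosin at 1.33 ± 0.301, Meioc at 0.900 ± 0.0608 and Zfp541 at 0.283 ± 0.0643. No neighbours in the knockout order overlapped, although the lowest Stra8 value, 5.92 FPKM, was close to the highest Ythdc2 value of 5.32.

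The germ-cell genes Ddx4, an RNA helicase gene, and Dazl, which encodes an RNA-binding protein that licenses germ cells for meiosis, were lower too. Ddx4 had 167, 220 and 202 CPM in control libraries 1 to 3 against 75.5, 71.3 and 90.9 CPM in the knockout ones, or -1.31 in log2 (SE 0.135). Dazl had a log2 fold change of -1.63 (SE 0.124). The 5 genes were therefore also counted per 100 counts of the geometric mean of Ddx4 and Dazl in the same library, and tested with that mean as library size. This scaling moved the median log2 fold change of all tested genes from 0.03 to 1.49, a shift of 1.47. It called 93.0% of all genes higher and 0.721% lower (93.7% either way). A rise on this scale is therefore the common case, and a fall is rare.

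**Figure D2:**
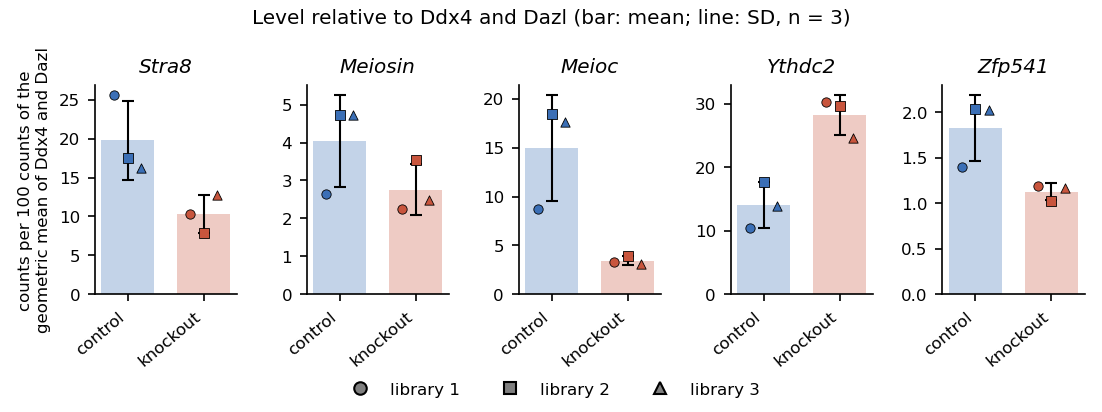
Counts of each of the 5 genes per 100 counts of the geometric mean of Ddx4 and Dazl, by library, on axes that start at 0 (bars are means, lines are SD, n = 3). The knockout points lie below the controls for Stra8, Meioc and Zfp541, among them for Meiosin, and above them for Ythdc2, at 24.6 to 30.4 against 10.5 to 17.8.

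Per 100 reference counts, Stra8 had 25.6, 17.6 and 16.2 in control libraries 1 to 3 against 10.3, 7.91 and 12.8 in knockout libraries 1 to 3. The groups did not overlap, and the highest value was that of control library 1. The log2 fold change relative to Ddx4 and Dazl was -0.93 (SE 0.222, edgeR adjusted p = 0.000231).

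On the same scale the controls held 8.76, 18.5 and 17.6 counts of Meioc, and the knockouts 3.33, 3.93 and 3.05, again without overlap. Its log2 fold change on this scale was -2.12 (SE 0.261, edgeR adjusted p = 9.12e-09). Meioc thus fell by a further 4.36-fold beyond the fall of the reference genes.

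Of Zfp541 the controls held 1.40, 2.04 and 2.03 counts per 100 reference counts, and the knockouts 1.19, 1.02 and 1.17. The groups did not overlap, but the distance from control library 1 to the knockouts was small. The difference of -0.69 in log2 (SE 0.330, adjusted p = 0.047 by edgeR) lay just inside the threshold, and 10 of 16 alternatives put it outside.

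Of Meiosin the controls held 2.63, 4.73 and 4.73 counts per 100 reference counts, and the knockouts 2.26, 3.53 and 2.49. Knockout library 2 was above control library 1, so the groups overlapped. The log2 fold change of -0.55 (SE 0.284, with a 95% interval from -1.13 to 0.03, adjusted p = 0.0661 by edgeR) did not pass. It passed without control library 1 (-0.78, edgeR adjusted p = 0.0026) and without knockout library 2 (-0.76, edgeR adjusted p = 0.0344).

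Of Ythdc2 the controls held 10.5, 17.8 and 13.8 counts per 100 reference counts, and the knockouts 30.4, 29.7 and 24.6, with no overlap. It rose on this scale, with 1.01 in log2 (SE 0.203, adjusted p = 2.85e-05 by edgeR), whereas its fold change scaled over all genes was negative. Since 93.0% of tested genes were called higher relative to Ddx4 and Dazl, with a median of 1.49, the call does not set Ythdc2 apart. Of the 5 genes, 3 were called lower on this scale against 0.721% of all genes. The level ranges of 3 lay wholly below the controls, against 0.887% of all genes, and that of Ythdc2 wholly above, against 92.7% (93.6% either way). In CPM 4 of the 5 ranges lay wholly below and none above, against 22.1% and 22.5% of all genes (44.6% either way).

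**Figure D3:**
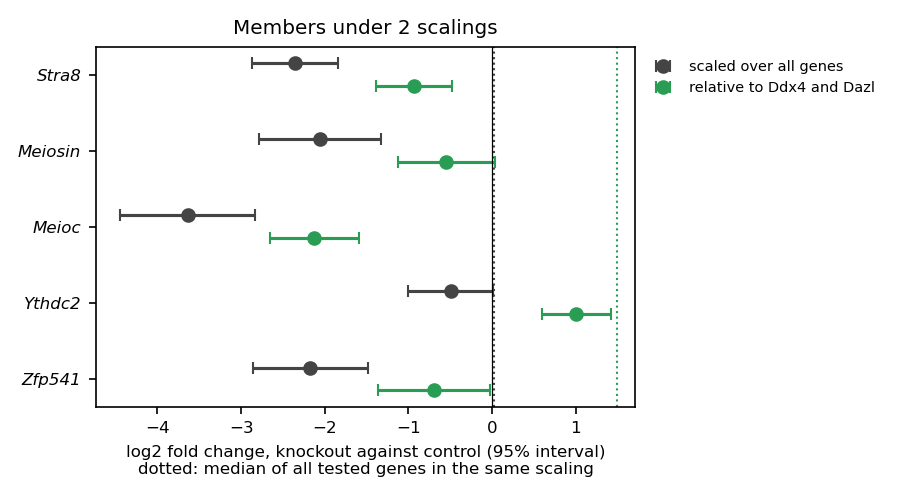
Log2 fold change of knockout against control for the 5 genes, with 95% intervals, scaled over all genes and relative to Ddx4 and Dazl. Dotted lines give the median of all tested genes on each scale, 0.03 and 1.49. The interval for Ythdc2 reaches 0 when scaled over all genes and that for Meiosin when taken relative to Ddx4 and Dazl.

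The 10 ratios between the 5 genes within a library do not depend on how libraries are scaled. With 3 against 3 libraries an exact two-sided permutation test cannot give a p below 0.1, or 0.167 after Benjamini-Hochberg adjustment over the 10 ratios, so none could pass. In 6 of the 10 the groups did not overlap, and each of these holds Meioc or Ythdc2. The 10 ratios share genes and are not independent, and the share without overlap among all pairs of genes was not computed. The ratio of Meioc to Ythdc2, the genes of 1 protein complex, changed most. On the log2 scale it was -0.26, 0.06 and 0.35 for control libraries 1 to 3 and -3.19, -2.92 and -3.01 for knockout libraries 1 to 3. Their counts were thus similar in each control library, and Meioc had far fewer than Ythdc2 in each knockout library. The mean log2 ratio changed by -3.09, or 8.51-fold (exact permutation p = 0.1, n = 3 each). In whole testes such a ratio can also move with the mix of cells, where 2 genes differ in the cells that make them. Scaled over all genes, Ythdc2 was at -0.50, Ddx4 at -1.31, Dazl at -1.63 and Meioc at -3.64. The part of the mix of cells in this ratio was not tested, so it is not a measure within germ cells.

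The ratios of Stra8 and Meiosin to Ythdc2 differed by -1.97 and -1.56 in log2, and that of Ythdc2 to Zfp541 by 1.71. None of these 3 overlapped between groups, each with the smallest possible exact p of 0.1. Meioc also fell against Meiosin, whose log2 ratio to Meioc changed by 1.53, and against Zfp541, by -1.38, again with no overlap. The ratio of Stra8 to Meioc changed by 1.12 and overlapped, because control library 1 was at 1.55 and the other controls were at -0.07 and -0.12. Among Stra8, Meiosin and Zfp541 the ratios changed by -0.41 (Stra8 to Meiosin), -0.26 (Stra8 to Zfp541) and 0.15 (Meiosin to Zfp541). All 3 overlapped between groups, with exact permutation p-values from 0.6 to 0.8. Their signs turned when 1 library was left out: without control library 1 the change was 0.071 for Stra8 to Meiosin and 0.12 for Stra8 to Zfp541, and without knockout library 2 it was -0.11 for Meiosin to Zfp541.

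The genes whose levels followed each of the 5 most closely were found by the root mean squared difference of gene-centred log2 CPM over the 6 libraries, among 12642 genes whose mean log2 CPM was 1 or more. The search used the same 6 libraries, so the likeness includes the difference between the groups. Nearest to Stra8 were Crabp1, which encodes a retinoic acid binding protein (difference 0.201), Sohlh1, a transcription factor gene of differentiating spermatogonia (0.240), and Gfra3, a GDNF-family receptor gene (0.244). Their log2 fold changes were -2.57, -2.08 and -2.66. Nearest to Meiosin were the junctophilin gene Jph3 (0.176), Lin28b (0.195) and Cpeb1 (0.198), which encode RNA-binding proteins. Zfp541 was followed most closely by Klrg2 (0.107), by Sycp1, which encodes the transverse filament of the synaptonemal complex (0.119), and by the crossover gene Rnf212 (0.148).

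Meioc had no gene as near. Its closest were Ccnb3, the cyclin B3 gene (0.406), the dipeptidase gene Dpep3 (0.432) and the transcription factor gene Runx3 (0.447), with log2 fold changes of -3.06, -2.97 and -2.87. Ythdc2 had the closest neighbours of all 5: Dmxl2 (0.0483), Pgap1 (0.0691) and Ccp110 (0.0698). All 3 shared its low value in control library 1, and none passed the test scaled over all genes (edgeR adjusted p = 0.128, 0.177 and 0.144). Each passed without control library 1, with log2 fold changes of -0.83 for Dmxl2, -0.65 for Pgap1 and -0.66 for Ccp110. Among the 5 genes themselves the nearest pair was Meiosin and Zfp541 (0.272) and the farthest Meioc and Ythdc2 (1.54).

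Upstream of the 5 genes stand the factors that prepare a spermatogonium for meiosis, here Dazl, Sohlh1, Sohlh2, Kit and Rhox13. All 5 were called lower when scaled over all genes, beside 13.9% of all tested genes. Their median log2 fold change was -1.63, beside 0.03 for all tested genes. Sohlh1 went from 43.8 ± 3.94 to 10.4 ± 3.98 CPM, and Rhox13, an X-linked homeobox gene of differentiating spermatogonia, from 10.02 ± 0.277 to 1.14 ± 0.420 CPM. The receptor gene Kit, a marker of differentiating spermatogonia, had a log2 fold change of -1.38 and the transcription factor gene Sohlh2 one of -1.40. Dazl is itself part of the reference and cannot be tested against it. Of the other 4, 2 were called lower relative to Ddx4 and Dazl, beside 0.721% of all tested genes. These were Rhox13 with a log2 fold change of -1.66 (edgeR adjusted p = 1.99e-05) and Sohlh1 with -0.64 (edgeR adjusted p = 0.00684). The call for Sohlh1 was lost without knockout library 1 (-0.54, edgeR adjusted p = 0.0547). On that scale Sohlh2 was at 0.07 and Kit at 0.11, and neither passed.

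Retinoic acid is the inducer of Stra8, and of 21 listed genes for its supply, binding, breakdown and receptors 18 were tested. Scaled over all genes, 3 were lower and 3 higher (16.7% each way, near the 13.9% and 11.1% of all tested genes), with a median log2 fold change of 0.00. The lower ones were Crabp1 (from 42.0 ± 4.69 to 7.10 ± 2.51 CPM), the retinol carrier gene Rbp4 (-1.94) and the receptor gene Rarg (-1.21). The higher ones were the degrading enzyme gene Cyp26b1 (0.60, edgeR adjusted p = 0.00714), the receptor gene Rara (0.36) and the retinol transporter gene Stra6 (0.35). The count of higher genes was 1 without control library 3 or any 1 knockout library, with the replicate block, and with upper-quartile or total-count scaling. The synthesis genes Aldh1a1 and Aldh1a2, singled out after their values were seen, were at 0.28 and -0.31 and did not pass. Relative to Ddx4 and Dazl, Crabp1 was the 1 gene of this list called lower (-1.13) and 14 were called higher. The shares of all tested genes were 0.721% lower and 93.0% higher.

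A list made for genes that hold back meiotic entry in mitotic germ cells had 13 members, all tested. Of these 4 were lower (30.8%) and 0 higher, beside 13.9% and 11.1% of all tested genes. Their median log2 fold change was 0.01. Dmrtb1 encodes DMRT6, a factor of the passage from spermatogonial differentiation to meiosis, so its fall is not that of a plain repressor of entry. Dmrtb1 went from 47.0 ± 5.21 to 2.06 ± 0.612 CPM, or -4.51 in log2 (edgeR adjusted p = 3.89e-05). The Polycomb genes Eed (-0.68) and L3mbtl2 (-0.64) and the transcription factor gene Dmrt1 (-0.53), which restrains Stra8 in spermatogonia, fell by less. The E-box factors Max and Mga, at 0.09 and 0.13, did not pass, and Mga was at -0.13 without control library 1. With the reference genes, Dmrtb1 was called lower (-3.02) and the other 12 higher, beside 0.721% and 93.0% of all tested genes.

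Of 8 genes whose products bind the 5 proteins, 7 were tested. Of these 4 were lower (57.1%) and 0 higher, beside 13.9% and 11.1% of all tested genes. Their median log2 fold change was -0.29. Rbm46, which encodes an RNA-binding partner of MEIOC and YTHDC2, went from 38.3 ± 13.1 to 14.7 ± 1.42 CPM, or -1.38 in log2 (SE 0.236, adjusted p = 0.00472 by edgeR). The helicase gene Upf1 (-0.37) and the deacetylase genes Hdac1 (-0.29) and Hdac2 (-0.30) passed with all libraries, but without control library 3 or any 1 knockout library only Rbm46 of this list did, and with the replicate number as a block 2 did. Xrn1, the exonuclease gene whose product binds YTHDC2, was at 0.24 (SE 0.246, adjusted p = 0.512 by edgeR) and at -0.055 without control library 1. Dnttip1 (-0.25) and Rb1 (-0.14), which encode partners of ZFP541 and STRA8, did not pass with all libraries, and passed without control library 2 and control library 1 respectively. Kctd19, the partner gene of Zfp541, was too low to test with 0.0558 CPM in controls against 0.0221 CPM in knockouts. Against the reference genes, Rbm46 was at 0.11 and the other 6 were called higher, beside 93.0% of all tested genes.

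**Figure D4:**
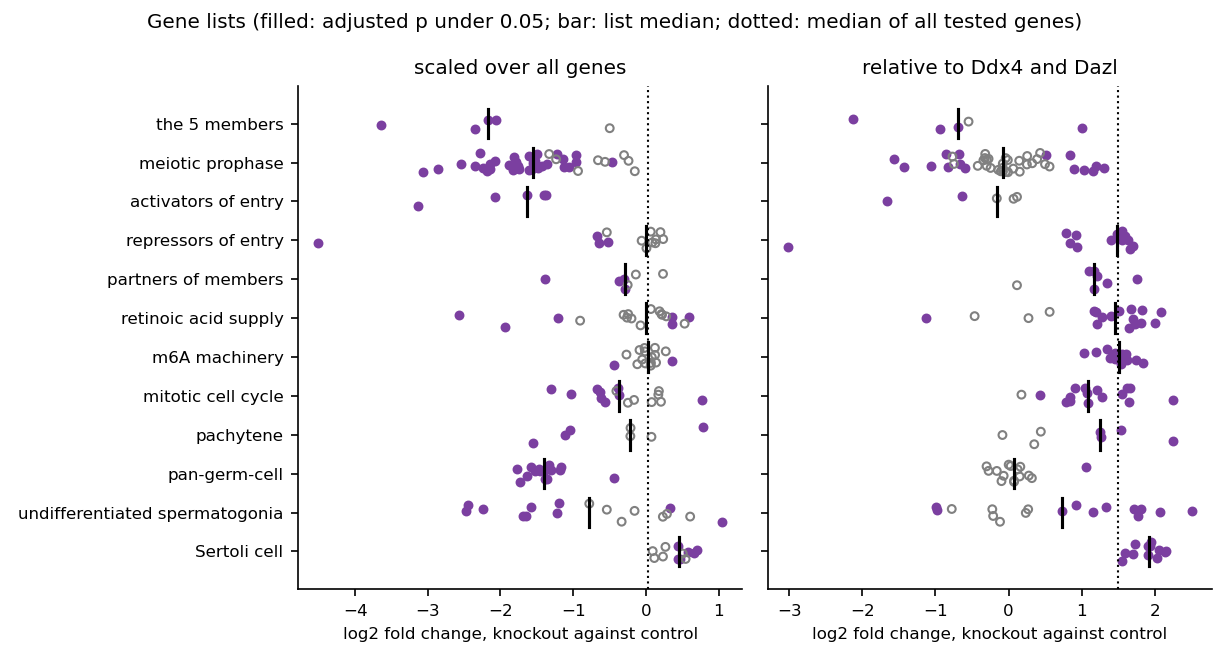
Log2 fold change of every tested gene in 12 lists, scaled over all genes on the left and relative to Ddx4 and Dazl on the right. Filled points passed the threshold, black bars are list medians, and dotted lines are medians of all tested genes. The medians of the meiotic prophase and pan-germ-cell lists move from -1.55 and -1.41 on the left to -0.08 and 0.07 on the right, where the second list includes both reference genes, while that of the 5 genes goes from -2.17 to -0.69.

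Downstream of STRA8 and MEIOSIN lie the genes of the meiotic prophase, of which 44 of 46 listed were tested. Scaled over all genes 36 were lower (81.8%) and 0 higher, beside 13.9% and 11.1% of all tested genes. Their median log2 fold change was -1.55. Sycp3, which encodes an axis protein of meiotic chromosomes, went from 47.0 ± 6.74 to 10.6 ± 0.401 CPM (-2.15, SE 0.129, edgeR adjusted p = 0.000104). Ccnb3 (-3.06), the telomere attachment gene Majin (-2.86), Ugt8a (-2.54) and M1ap (-2.29) fell by more. The 15 pan-germ-cell genes all fell as well, with a median of -1.41. Relative to Ddx4 and Dazl, 8 prophase genes were called lower and 7 higher, beside 0.721% and 93.0% of all tested genes. The prophase median was -0.08 on that scale, beside 1.49 for all tested genes. With Ddx4 alone as reference the counts were 12 and 6, with a median of -0.24, and with Dazl alone they were 7 and 11, with a median of 0.08. The log2 fold changes on this scale were -1.57 for Ccnb3, -1.42 for Majin, -1.06 for Ugt8a, -0.82 for M1ap, -0.67 for Sycp3 and -0.59 for Sycp1, all called lower, beside -0.93 for Stra8 and -2.12 for Meioc. The call for Majin was lost without control library 3 (edgeR adjusted p = 0.0691) or knockout library 3 (edgeR adjusted p = 0.0528).

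Of 13 later genes, of the pachytene stage, 7 had enough counts to test. Of these 3 were lower (42.9%) and 1 higher (14.3%), beside 13.9% and 11.1% of all tested genes. Clgn (-1.55) and Ybx2 (-1.11) fell, Piwil1 fell by 1.05 with a call that was lost with the replicate block or without any 1 library other than control library 1, and Mybl1 rose by 0.79.

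MEIOC and YTHDC2 are known to lower transcripts of the mitotic cycle, of which 16 genes were listed and tested. Scaled over all genes 8 were lower (50%) and 1 higher (6.25%), beside 13.9% and 11.1% of all tested genes. The list median was -0.37 in log2. The G1 cyclin genes Ccnd1 (from 66.4 ± 11.1 to 26.9 ± 2.70 CPM) and Ccne2 (-1.03) and the mitotic cyclin gene Ccnb1 (-0.63) fell, and Ccnd2 rose from 306.7 ± 38.1 to 523 ± 18.6 CPM (0.77). The count of lower genes was 4 without control library 3, knockout library 1 or knockout library 2. Ccna2, a cyclin gene singled out after its values were seen because its transcript is a known target of the complex, had 178.6 ± 13.4 CPM in controls against 150.5 ± 19.0 CPM in knockouts (-0.25, SE 0.116, edgeR adjusted p = 0.147). With Ddx4 and Dazl as reference, Ccna2 was at 1.21 and the list median was 1.08, both under the median of 1.49 of all tested genes. On that scale 15 of the 16 genes were called higher, beside 93.0% of all tested genes, so the count does not set this list apart.

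The 16 other genes of the m6A pathway, the RNA modification that the YTH domain of YTHDC2 can bind, had a median log2 fold change of 0.03. Alkbh5, the eraser gene, was lower (-0.44) and the reader gene Ythdf3 higher (0.37). This is 6.25% each way, beside 13.9% and 11.1% of all tested genes. Neither gene passed without control library 3 or without any 1 knockout library.

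Germ-cell and somatic markers were counted in the same libraries. Their counts scaled over all genes stand beside 13.9% lower and 11.1% higher among all tested genes. The summed level of the 15 pan-germ-cell genes was 1439 to 1912 CPM in the controls and 577 to 714 CPM in the knockouts. Of 17 genes of undifferentiated spermatogonia, 8 were lower (47.1%), 2 were higher (11.8%) and 7 did not pass. The count of higher ones was 0 without knockout library 1 or 2. Sox3 (-2.45) and Egr4 (-1.58), those with the smallest p, were among the lower ones. Summed levels were 491 to 669 CPM in the controls and 364 to 425 CPM in the knockouts. Relative to Ddx4 and Dazl, 2 of the 17 were called lower and 9 higher, with a median of 0.72. All tested genes had 0.721% called lower, 93.0% called higher and a median of 1.49 on that scale. Of 12 Sertoli cell markers 6 were higher (50%) and 0 lower, among them Kitl (0.67) and Fshr (0.47), with a median of 0.46. Their summed level was 4774 to 6671 CPM in the controls and 6512 to 7430 CPM in the knockouts, and the count of higher markers was 1 without knockout library 1 or 2, 3 without control library 3 and 10 without control library 1.

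Of 7 Leydig cell markers 2 were higher (28.6%, beside 11.1% of all tested genes), Hsd17b3 by 0.81 and Lhcgr by 1.002. Without control library 1 all 7 were higher. Their sum was 915 CPM in control library 1, 467 and 439 CPM in the other controls and 1011 to 1038 CPM in the knockouts. Of 5 endothelial markers 4 were higher (80%), including Pecam1 (0.48) and Kdr (0.63), with sums of 182 to 212 and 259 to 288 CPM. Leaving out knockout library 1 took that count to 0, and leaving out the second or the third took it to 1 or 2. Of 6 macrophage markers 2 were higher (33.3%), Mrc1 (0.50) and Cx3cr1 (0.47), a count of 1 to 4 with 1 library left out. The macrophage sums were 73.9 to 83.6 CPM in the controls and 104 to 120 CPM in the knockouts. Of 5 peritubular myoid markers, Cnn1 and Myh11 among them, 0 passed in either direction by edgeR's test (1 was lower without control library 1 or with total-count scaling, and 1 was lower and 1 higher without control library 2), with sums of 1195 to 1224 and 1186 to 1240 CPM. None of the markers of these lists was at 0 in all libraries. The part of the mix of cells in the falls of Stra8, Meiosin, Meioc and Zfp541 was not tested beyond the scaling by germ-cell genes. With the summed counts of the pan-germ-cell list in place of Ddx4 and Dazl, the log2 fold changes were -0.97 for Stra8, -0.57 for Meiosin, -2.14 for Meioc and -0.72 for Zfp541, and with those of the meiotic prophase list -0.93, -0.50, -2.07 and -0.65. Stra8 and Meioc passed with both sums and Meiosin with neither, and Zfp541 passed with the pan-germ-cell sum alone.

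**Figure D5:**
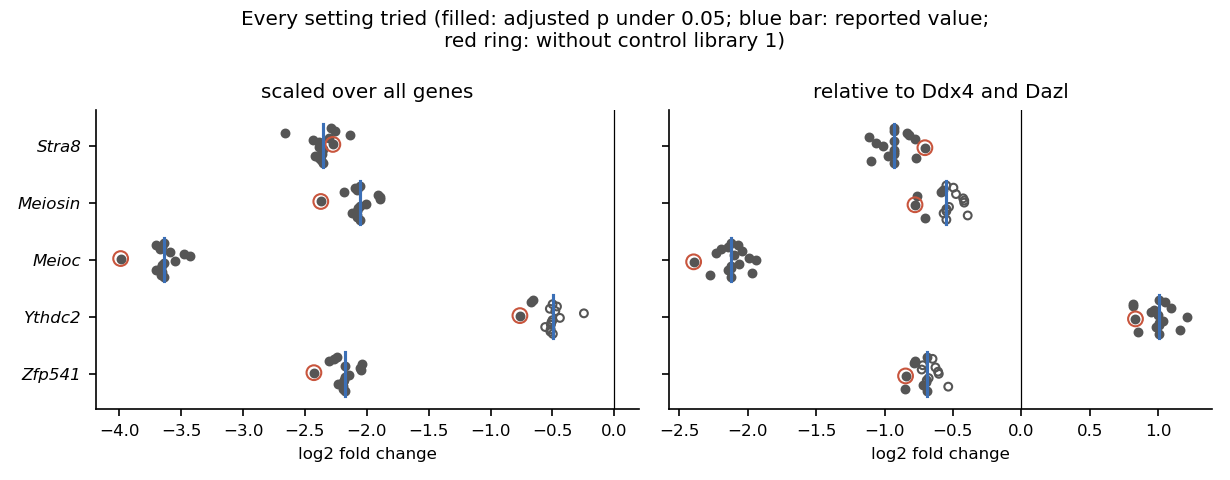
Log2 fold change of the 5 genes under every alternative tried, scaled over all genes on the left and relative to Ddx4 and Dazl on the right. Filled points passed the threshold, the blue bar is the value reported in the text and the red ring marks the value without control library 1. Stra8 and Meioc were called lower in every alternative on both scales, and Ythdc2 passed on the left in 3 of 15.

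Across 15 alternatives scaled over all genes, the calls of Stra8, Meiosin, Meioc and Zfp541 held in every one. Relative to Ddx4 and Dazl, those of Stra8, Meioc and Ythdc2 held in all 16. Leaving out 1 library at a time kept the log2 fold change of Meioc between -3.99 and -3.43 scaled over all genes and between -2.40 and -1.94 relative to Ddx4 and Dazl. For Stra8 these ranges were -2.66 to -2.13 and -1.12 to -0.70.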

How the data were processed

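Messenger RNA from whole testes was sequenced in 3 control and 3 knockout libraries. The authors deposited 1 table that holds, for each gene, a count column and an FPKM column for every library. Per the submitters' processing notes, StringTie 1.3.1 and RSEM were used, with no role given. Which aligner, build, annotation and strand setting were used is not stated, so reads of overlapping or antisense genes cannot be told apart. The whole numbers in the deposited count columns were treated as rounded estimated counts, because each library lists 3 to 21 genes with no count whose FPKM is not 0. The deposited FPKM values, which divide by length and library size, served only for levels between genes and as an alternative for ratios.

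Libraries held 15407007 to 18372964 counts. The filterByExpr function, at its minimum count of 10, chose the genes to test, and the others held 0.063% of counts. Tests used edgeR 4.0.16 in R 4.3.3, without covariates, on TMM-scaled counts or with the geometric mean of the Ddx4 and Dazl counts as library size. Adjustment followed Benjamini and Hochberg over all 14424 genes, and the threshold was 0.05. Scaled over all genes, 3607 genes passed, 2008 lower and 1599 higher. CPM values use a prior count of 2 only in the search for near genes.

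On simulated counts of 3 against 3 libraries and 14300 genes, 74.7% of genes changed by 1 on the log2 scale were recovered. For genes changed by 2 it was 97.9%, and 16 of 185 calls were false. The simulation changed few genes, equally up and down, and held no length trend and no joint fall of germ-cell genes. Its figures check the method and are not error rates of this comparison. No libraries of a group agreed within sampling noise. Deviations from the group mean had correlations of -0.0719, -0.0781 and 0.0695 between samples with the same number. Between samples with different numbers they ran from -0.224 to 0.225. With 3 libraries a group this check showed no pairing but cannot exclude one, and the labels state none.

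The genes, lists and tests were chosen with earlier results of these data known. Named genes are the 5 genes with Ddx4 and Dazl, the 3 nearest genes of each, all genes that bind the 5 proteins or promote meiotic entry, from each other pathway list the 3 with the largest change and the 2 with the smallest p, and from each marker list the 2 with the smallest p. The genes Dmrt1, Max, Mga, Aldh1a1, Aldh1a2 and Ccna2, from the same lists, were named after their values were seen. Alternatives were RLE, upper-quartile and total-count scaling, DESeq2 1.42.0, dropping the filter, a stricter one (1 CPM or more in 3 libraries), a replicate block from the sample numbers, omission of each library, Ddx4 alone, Dazl alone or the summed pan-germ-cell counts as reference, and FPKM for ratios. Removal of a length trend (lowess, span 0.3), alone or with the block, the summed meiotic prophase counts as reference and a stricter filter with the reference genes were added after seeing the data. Transcript lengths are from GENCODE M21, which gave one for 99.9% of tested genes.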

Additional observations from a re-analysis of the deposited data

How the results depend on the processing

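With 3 libraries a group, low counts (18 to 23 for Zfp541 in knockouts) and control library 1 limit what can be told. The number of genes changed ranged from 1355 to 5255 when 1 library was left out, against 3607 with all. It was higher without control library 1 (5255) or control library 2 (4277). It was lower without control library 3 (1795) and without knockout libraries 1, 2 and 3 (1444, 1355 and 1933). Each omission leaves fewer samples, and the cause of the differences was not tested.

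Ythdc2, scaled over all genes, ranged from -0.76 to -0.25 with 1 library left out, passed without control library 1 (-0.76, edgeR adjusted p = 0.000757), and passed with the length trend removed (-0.67, adjusted p = 0.00522) and with that and the replicate block (-0.65, adjusted p = 0.0104). Meiosin relative to Ddx4 and Dazl ranged from -0.78 to -0.42 with 1 library left out, and passed with Ddx4 alone (-0.71, adjusted p = 0.0245), with the length trend removed (-0.59, adjusted p = 0.0264) and with that and the block (-0.57, adjusted p = 0.0294). Zfp541 relative to Ddx4 and Dazl ranged from -0.85 to -0.60 with 1 library left out, with adjusted p from 0.0156 to 0.15. It did not pass with Dazl alone (-0.53, adjusted p = 0.119), by DESeq2 (-0.69, adjusted p = 0.0999), with no filter (-0.69, adjusted p = 0.0532), with the replicate block (-0.68, adjusted p = 0.0678) or against the summed meiotic prophase counts (-0.65, adjusted p = 0.0566). The cause of these differences was not tested. The replicate block changed no other call of the 5 genes.

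Some signs turned, all of differences that did not pass or of medians. The log2 ratio of Stra8 to Meiosin ranged from -0.68 to 0.071 with 1 library left out, that of Stra8 to Zfp541 from -0.48 to 0.12 and that of Meiosin to Zfp541 from -0.11 to 0.32. With Ddx4 alone as reference, Sohlh2 was at -0.096, Kit at -0.042 and Rbm46 at -0.040. Relative to Ddx4 and Dazl with 1 library left out, Kit ranged from -0.062 to 0.25 and Rbm46 from -0.059 to 0.30, and Xrn1 scaled over all genes ranged from -0.055 to 0.53. The turned values came without control library 1, or without knockout library 2 for Meiosin to Zfp541. Medians near 0 turned too: relative to Ddx4 and Dazl, the prophase list went from -0.079 to 0.082 with Dazl alone and the pan-germ-cell list from 0.074 to -0.091 with Ddx4 alone. Scaled over all genes, medians ranged over all alternatives from -0.093 to 0.16 for the retinoic acid list. The range was -0.071 to 0.052 for the list made for genes that hold back meiotic entry, and -0.067 to 0.099 for the m6A list. The cause was not tested.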
